A study of Equus caballus with 17 samples.

Results

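RNA was compared between cultured horse muscle cells kept for 48 h in severe hypoxia, at 1% O2, and cells kept for the same time at 21% O2, the oxygen level of room air. The comparison takes every library whose treatment label reads one of these conditions, which gave 3 libraries at 1% O2 and 5 at 21% O2, 8 of the 17 libraries of the series. All of the cells came from the gluteus medius, a hindquarter muscle, of a single 10-month-old foal described as preterm, taken after its death. A pre-plating step, in which fibroblasts attach first and are left behind, enriched the cultures in myoblasts. Both groups were attached overnight in standard incubators on gelatin-coated flasks before the 1% O2 cultures went into a controlled-oxygen workstation, and nothing else is said to have differed between them. By the labels, 3 technical replicates were prepared for a group, but 5 libraries carry the 21% O2 label, and nothing says which came from separate cultures. Therefore p-values measure only the spread between these libraries, which may be technical, and with 1 donor they say nothing about other horses.

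Myoblasts are the dividing precursors that fuse into muscle fibres when the tissue grows or is repaired. Cells sense low oxygen through prolyl hydroxylases, enzymes that need oxygen to mark the hypoxia-inducible factors for breakdown. When oxygen is scarce these factors accumulate and switch on genes for glucose uptake, glycolysis, blood vessel growth and mitochondrial turnover, and in cultured muscle precursors oxygen level is also known to influence division and differentiation. The comparison asks how far the transcriptome of these cells had changed after 48 h at 1% O2.

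The files identify genes by Ensembl ID only, and a RefSeq table of 39335 horse genes paired 0 of these IDs with a symbol. The 13 lists of genes prepared for this comparison, among them targets of the hypoxia-inducible factors, glycolysis, muscle differentiation and markers of fibroblasts and other cell types, therefore could not be read, and the identity of the cultures was not checked against markers. Genes are described below by their number, level and behaviour over the 8 libraries, and 4 of them by ID. Total counts ran from 12998260 to 24274627 per library. They averaged 15939230 ± 2554965 at 1% O2 (SD, n = 3) and 19217185 ± 3880076 at 21% O2 (SD, n = 5). Of 38849 gene IDs, 23578 had a count in at least 1 of the 8 libraries and 13544 had enough counts to be tested.

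No gene passed the test between 1% and 21% O2 at 48 h. By edgeR's quasi-likelihood test, adjusted after Benjamini and Hochberg, 0 of 13544 genes were called (0%), and the smallest adjusted p was 1.00. The unadjusted p was under 0.05 for 231 genes, 1.71% of those tested, and DESeq2 and limma-voom also called 0 genes, with 259 and 203 genes at that unadjusted level. With no difference and a well-calibrated test, a share of about 0.05 of genes would fall under it, so 1.71% is no excess. That reading is for all 8 libraries, and with replicate 3 at 21% O2 left out the share was above 0.05. Of the 231 genes, 192 had the higher mean at 1% O2 (1.42% of genes tested) and 39 the lower (0.288%). The 3 libraries at 1% O2 lay wholly above the 5 at 21% O2 for 119 genes, 0.879% of those tested, and wholly below them for 81, 0.598%. Of the 56 ways to label 3 of the 8 libraries, 1 gives each such order, a share of 0.0179. Both observed shares were below it. Over all genes the median absolute log2 fold change was 0.12, with a median standard error of 0.22, so the typical difference between the groups was smaller than its own error.

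**Figure D1:**
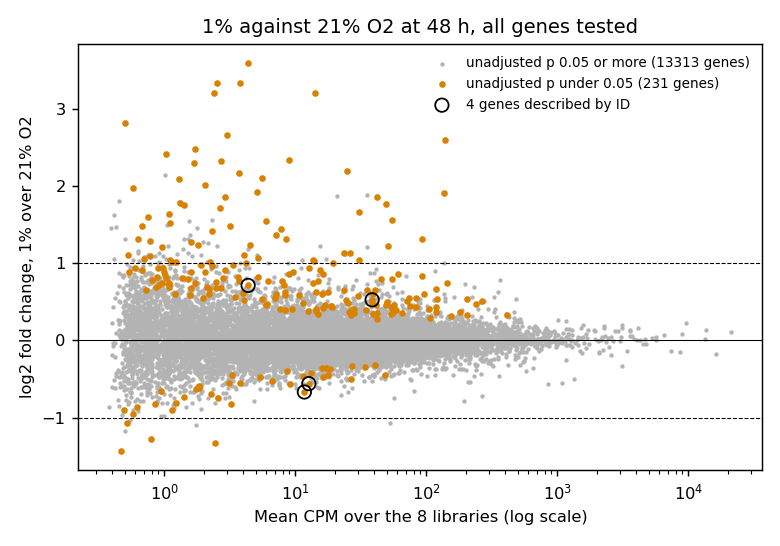
Log2 fold change of 1% over 21% O2 at 48 h (vertical axis) against the mean level in CPM (counts scaled to a common library total) over the 8 libraries (horizontal axis, log scale) for the 13544 genes tested. Orange points are the 231 genes with an unadjusted p under 0.05, circles are the 4 genes described by ID, dashed lines mark 2-fold differences, and the points beyond 2-fold lie mostly on the upper side.

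The data limited how large a response the group means could hold for most genes. For 10552 genes, 77.9% of those tested, the whole 95% interval of the fold change lay within 2-fold in either direction, and for 5887 genes, 43.5%, it lay within 1.5-fold. These intervals are for 1 gene at a time and use the spread between libraries within the groups. Precision rose with expression level, given here in CPM, counts scaled to a common library total. Under 1 CPM the interval lay within 2-fold for 16.2% of 1013 genes, and at 1 to 10 CPM for 61.2% of 3763. At 10 to 100 CPM that share was 91.8% of 6914 genes, and above 100 CPM it was 93.8% of 1854. For the other 2992 genes a difference of 2-fold or more in at least 1 direction was within the interval. A lack of calls among them does not show that they kept their level.

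Single libraries of a group lay 2-fold apart for more genes than the group means did. A range of single libraries is the wider measure even where groups do not differ, so these counts are descriptions. A spread of at least 2-fold between the highest and lowest of the 5 libraries at 21% O2 was seen for 3710 genes, 27.4% of those tested. The same spread among the 3 libraries at 1% O2 was seen for 3112 genes, 23.0%. A fitted difference between the groups of at least 2-fold was seen for 120 genes, of which 112 were higher at 1% O2 (0.827% of genes tested) and 8 lower (0.0591%). Of the 120 genes, 33 had a mean under 1 CPM, 63 lay at 1 to 10, 22 at 10 to 100 and 2 above 100 CPM. The groups overlapped for all but 8 of the 120. In the 8 libraries the oxygen group accounted for 9.53% of the variation in log2 CPM summed over genes, and 90.5% lay within the groups. Oxygen has 1 degree of freedom and would hold part of the variation under random labels too, so these shares are no test.

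The largest differences, those of at least 4-fold, were mostly high in a single library. Among the 19 genes at least 4-fold higher at 1% O2 by the fit, replicate 1 at 1% O2 was the highest library for 9 and replicate 2 for 10, and 16 of the 19 were at least 4-fold higher in that library than in each of the other 7. No gene was 4-fold lower. The 112 genes at least 2-fold higher were more mixed: 66 were at least 2-fold higher in 1 library than in each of the other 7, and for 54 a second library at 1% O2 also lay above all 5 at 21% O2. Across all genes tested, 30 were at least 4-fold higher in 1 library than in each of the other 7. Replicate 1 at 1% O2 was that library for 13 of them, replicate 2 at 1% O2 for 16 and replicate 3 at 21% O2 for 1. The other 5 libraries had none. These genes were picked by their levels, so the numbers describe the libraries and carry no test.

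The 13 genes that stood out in replicate 1 and the 16 that stood out in replicate 2 are different genes, since each set is defined by its own library. The first set had a median of 14.6 CPM in replicate 1, against medians of 0.714 to 1.41 CPM in the other 7 libraries. Summed, these genes held 263 CPM there and 12.2 to 29.6 CPM elsewhere. In replicate 2 the second set had a median of 13.2 CPM and a highest value of 604 CPM, against medians of 0.961 to 1.47 CPM in the other libraries. Its sum was 1521 CPM there, and 90.6 to 319 CPM elsewhere. In replicate 1 the second set sat at a median of 1.32 CPM, and in replicate 2 the first set sat at 0.989 CPM, both within the range of the 21% O2 libraries. That the other libraries are low follows from how the sets were picked. Which cells or functions the sets belong to was not tested, as the IDs carry no names.

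Replicate 2 at 1% O2 also stood apart more widely. It lay at least 2-fold above each of the other 7 libraries for 90 of the 153 genes with such a library, and at least 2-fold below each of them for 151 of 249. For replicate 1 at 1% O2 the corresponding numbers were 41 and 7, and for replicate 3 at 1% O2 they were 3 and 11. Among the libraries at 21% O2 the most were 12 genes above (replicate 3) and 41 below (replicate 2). Among the 192 genes with an unadjusted p under 0.05 and a higher mean at 1% O2, replicate 2 was the highest of the 3 libraries for 126, or 65.6%, and for 158 a second library at 1% O2 lay above all 5 at 21% O2. When replicate 2 at 1% O2 was omitted, 159 genes had an unadjusted p under 0.05, 130 of them higher and 29 lower at 1% O2. Replicate 2 had the lowest total count of the 8 libraries, 12998260, and the part of depth in these differences was not tested.

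Whole profiles were compared by principal component analysis, which orders libraries along the directions of greatest total variation in log2 CPM. The first component of log2 CPM held 51.1% of the variance and set both libraries numbered 3 apart, at 54.8 for 1% O2 and 58.7 for 21% O2, from the other 6, which lay between -31.2 and 1.54. The second held 19.2% and separated replicate 2 at 1% O2, at 53.6, from all others, at -15.9 to 0.723. The third component, with 13.3%, separated replicate 2 at 21% O2, at -44.5, from the rest, at -1.54 to 14.3. None of the 3 placed all libraries at 1% O2 to one side of all those at 21% O2. The first component averaged 7.26 ± 41.2 at 1% O2 (SD, n = 3) and -4.36 ± 37.5 at 21% O2 (SD, n = 5), with an exact two-sided permutation p of 0.679. For the second the means were 11.9 ± 36.8 and -7.12 ± 5.07, with an exact permutation p of 0.286. Each test had 56 arrangements of the labels, which allow a p of 0.0179 at the least, and over the 5 library measures tested the adjusted values were 0.929 and 0.714.

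**Figure D2:**
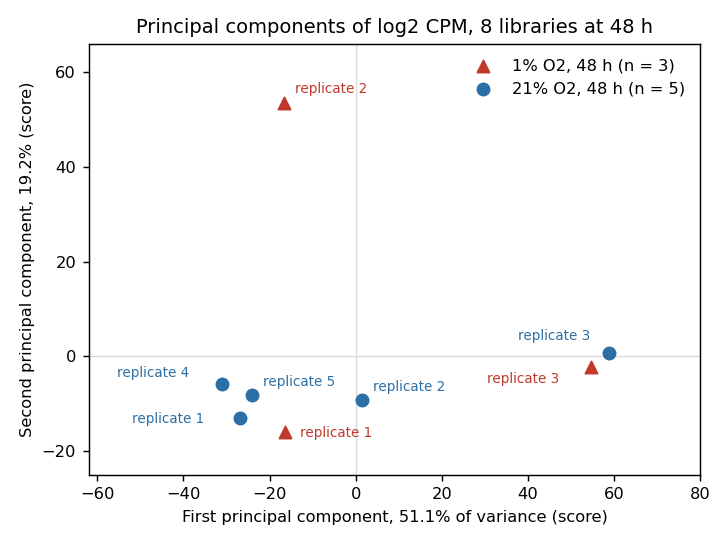
Scores of the 8 libraries on the first (51.1% of variance, horizontal) and second (19.2%, vertical) principal components of log2 CPM, with triangles for 1% O2 and circles for 21% O2. Both libraries numbered 3 lie together at the right, replicate 2 at 1% O2 lies alone at the top, and replicate 1 at 1% O2 lies among the libraries at 21% O2.

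The libraries numbered 3 shared a further feature, a steeper distribution of counts. The 100 most abundant genes took 34.5% of counts in replicate 3 at 1% O2 and 35.5% in replicate 3 at 21% O2. In the other libraries they took 28.2% and 27.3% (replicates 1 and 2 at 1% O2), and 27.3%, 32.2%, 26.5% and 27.9% (replicates 1, 2, 4 and 5 at 21% O2). Between the oxygen groups this share was 30.03% ± 3.90 (SD, n = 3) against 29.87% ± 3.82 (SD, n = 5), with an exact permutation p of 0.929. The number of genes with a count was 18508 ± 284 at 1% O2 and 18584 ± 410 at 21% O2 (exact permutation p = 0.839), and total counts gave an exact permutation p of 0.250. When every library was set to the lowest depth by calculation, 18241, 18250 and 17869 genes were expected with a count in replicates 1, 2 and 3 at 1% O2, and 17742 to 17997 in the 5 libraries at 21% O2. At that depth replicates 1 and 2 at 1% O2 lay above all libraries at 21% O2, and replicate 3 lay within their range.

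Single library pairs showed the same arrangement. The difference between 2 libraries was taken as the median absolute difference in log2 CPM over the 9905 genes that averaged 100 counts or more. The smallest of the 28 differences, 0.0965, was between replicate 1 at 1% O2 and replicate 1 at 21% O2. Replicate 3 at 1% O2 and replicate 3 at 21% O2, at 0.118, gave the third smallest. Replicate 2 at 1% O2 was closest to replicate 4 at 21% O2, at 0.223, and lay 0.252 and 0.371 from replicates 1 and 3 of its own group. The 3 differences within 1% O2 averaged 0.310 ± 0.0597 (SD) and the 10 within 21% O2 averaged 0.255 ± 0.0962. Between the groups the mean was 0.274 ± 0.0791 for the 12 pairs with different replicate numbers, and 0.178 ± 0.124 for the 3 with the same number. These averages reuse the same libraries and are given as descriptions. The nearest library was from the other oxygen group for 6 of the 8 libraries, the exceptions being replicates 4 and 5 at 21% O2, which both lay nearest to replicate 1 there. No 2 libraries were copies of each other: the chi-square of their counts was 9.53 per degree of freedom or more for every pair.

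**Figure D3:**
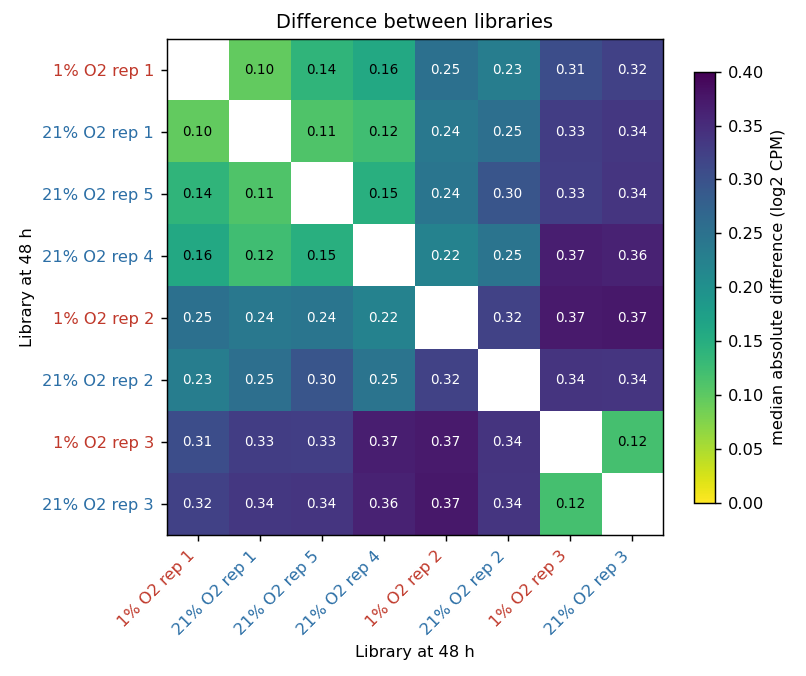
Median absolute difference in log2 CPM between each pair of the 8 libraries, over 9905 genes, with darker cells for larger differences and red and blue labels for 1% and 21% O2. The smallest value joins the libraries numbered 1 of both oxygen levels (0.0965), and the libraries numbered 3 (0.118) form a block apart from the rest.

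The labels number the libraries, so 1% and 21% O2 were also compared within each number. The libraries numbered 1, and likewise those numbered 3, were nearest to each other, so low counts of genes 2-fold apart there partly restate that closeness. The libraries numbered 2 were not close: they lay 0.321 apart, rank 17 of the 28 differences. The labels do not say that a number marks a shared flask, day or extraction. Replicate 1 at 1% O2 was at least 2-fold above replicate 1 at 21% O2 for 226 genes and below it for 63, together 2.13% of genes tested. For the libraries numbered 3 these counts were 125 and 79, or 1.51%, and for those numbered 2 they were 754 and 851, or 11.9%. At least 2-fold higher at 1% O2 in 2 or more of the 3 comparisons were 55 genes, and 18 were lower, while 115 genes were higher in 1 comparison and lower in another by that margin. The sign was the same in all 3 comparisons for 3010 genes (22.2%), higher for 1363 and lower for 1647. Independent random signs would on average agree in all 3 for a somewhat larger share of genes, so the count is no excess and shows no response. The 3 sets of differences share no library, and across genes, which are not independent replicates, they had Pearson correlations of -0.12 for numbers 1 and 2, 0.00055 for 1 and 3, and -0.041 for 2 and 3.

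**Figure D4:**
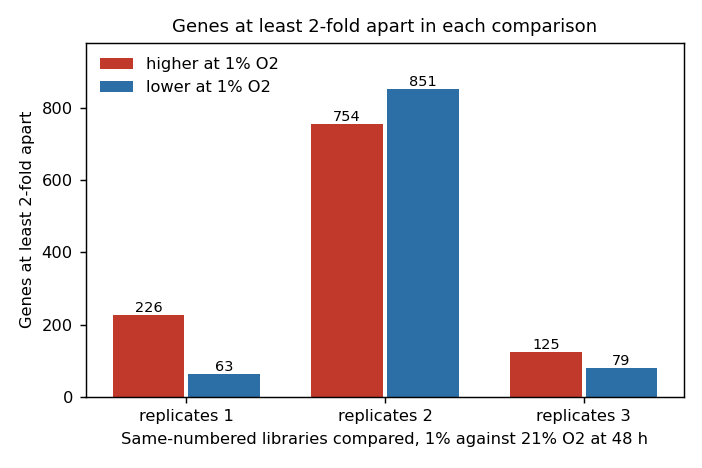
Number of genes at least 2-fold higher (red) or lower (blue) at 1% than at 21% O2 within each replicate number, of 13544 genes tested. The libraries numbered 2 differ for 1605 genes, against 289 for those numbered 1 and 204 for those numbered 3.

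In the 6 libraries numbered 1 to 3, the variation of log2 CPM summed over genes divided into 68.0% with the replicate number, 9.50% with oxygen and 22.5% with neither. The number has 2 degrees of freedom, oxygen 1 and the remainder 2. Oxygen therefore carried less variation per degree of freedom than the remainder. The share with the number was larger for abundant genes. It was 58.2% under 1 CPM, 68.2% at 1 to 10 CPM, 70.8% at 10 to 100 CPM and 74.5% above 100 CPM, where oxygen held 13.1%, 9.28%, 8.51% and 7.62%.

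No gene passed the threshold. Without overlap were 119 genes higher and 81 lower at 1% O2, 0.879% and 0.598% of genes tested. Of these, 77 and 55 reached an average of 5 CPM in the group where they were higher. The 2 with the smallest unadjusted p in each direction are given as the closest these data come to an ordered difference. ENSECAG00000024456 had 46.1, 50.1 and 46.9 CPM in replicates 1, 2 and 3 at 1% O2, and 30.9, 30.4, 33.3, 34.4 and 36.4 CPM in replicates 1 to 5 at 21% O2. All 3 values at 1% O2 lay well above the highest at 21% O2. The means were 47.7 ± 2.14 CPM (SD, n = 3) and 33.1 ± 2.49 CPM (SD, n = 5). Expressed as log2 fold change, the difference was 0.53 ± 0.12 (SE, 95% interval 0.27 to 0.79). Its unadjusted edgeR p was 0.00119, the smallest of all genes tested, and its adjusted p was 1.00. Within the same replicate number it was higher at 1% O2 by 0.57, 0.72 and 0.49 in log2 CPM.

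The other gene on the higher side, ENSECAG00000052089, had 4.95, 6.39 and 5.96 CPM at 1% O2. Its levels at 21% O2 were 3.39, 4.01, 3.38, 3.49 and 3.30 CPM. Replicate 2 was the highest library in each group. The log2 fold change came to 0.71 ± 0.19 (SE, adjusted p by edgeR = 1.00), and within the same number the differences were 0.53, 0.66 and 0.80 in log2 CPM.

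For the 2 genes given on the lower side the separation was narrower. ENSECAG00000057255 had 9.79, 7.91 and 7.96 CPM at 1% O2, and 11.7, 18.1, 9.87, 14.3 and 14.1 CPM at 21% O2. Replicate 1 at 1% O2 and replicate 3 at 21% O2 nearly met. The log2 fold change came to -0.67 ± 0.22 (SE, edgeR adjusted p = 1.00). ENSECAG00000004595 had 11.5, 7.22 and 10.6 CPM at 1% O2, against 15.8, 14.3, 13.1, 16.7 and 12.1 CPM at 21% O2. Its lowest library was replicate 2 at 1% O2, and replicate 1 at 1% O2 lay just under replicate 5 at 21% O2. For this gene the log2 fold change came to -0.56 ± 0.20 (SE, edgeR adjusted p = 1.00). All 4 genes kept their direction in each of the 20 alternative analyses. That largely follows from their choice as genes without overlap, which also fixes the sign of their differences within the same number. None of the 4 passed the threshold in any alternative, with adjusted p from 0.166 (ENSECAG00000024456 by DESeq2) to 1.00.

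**Figure D5:**
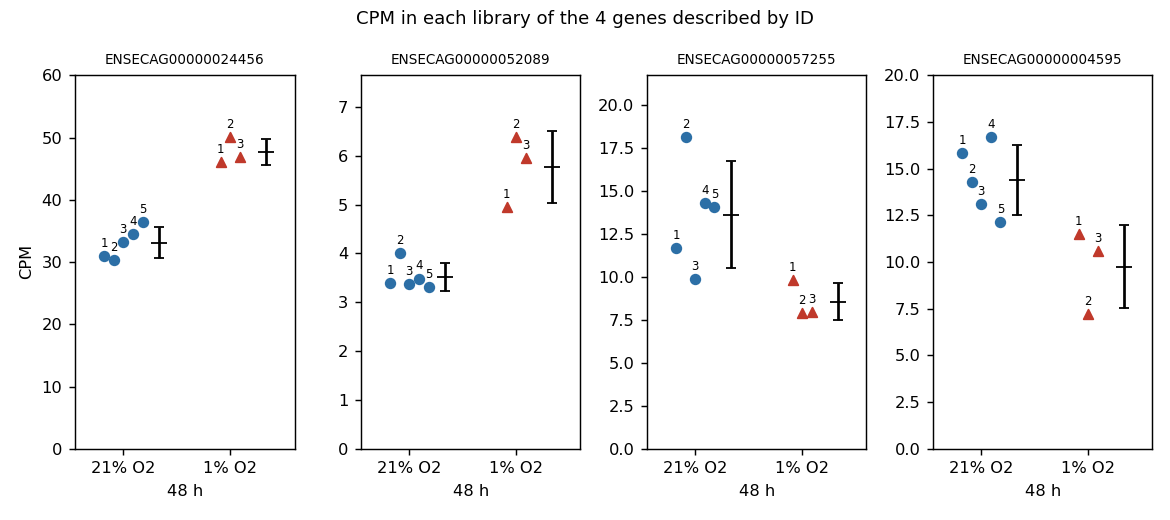
CPM in each library at 21% O2 (circles) and 1% O2 (triangles) of the 4 genes described by ID, with the replicate number above each point and bars for the mean ± SD. The groups do not overlap for any of the 4, as the choice of genes required, and the gap is widest relative to the spread for ENSECAG00000024456 (46.1 to 50.1 against 30.4 to 36.4 CPM).

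Genes seen in 1 group only were all of low abundance. Of 23578 genes with a count, 1216 were counted only at 1% O2, 2334 only at 21% O2 and 20028 in both groups. The summed counts of genes seen in 1 group only were at most 37 over the 3 libraries at 1% O2, which hold 47817691 reads. Over the 5 at 21% O2, which hold 96085925, they were at most 16. With fewer libraries and reads at 1% O2, the numbers 1216 and 2334 cannot be compared directly. None of the genes seen in 1 group only had enough counts to be tested. A count was present in every library of its group for 15 and 17 of them.

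Leaving out 1 library left the number called at 0 in all 8 cases, with a smallest adjusted p of 0.605, and changed the 231 genes with an unadjusted p under 0.05. Of the libraries at 1% O2, the number was 656 when replicate 1 was omitted, 159 when replicate 2 was and 363 when replicate 3 was. Omitting replicates 1 to 5 at 21% O2 in turn gave 130, 222, 795, 114 and 145. The 795 were of 13458 genes tested, a share above 0.05, with 602 higher and 193 lower at 1% O2. The 656 were of 13821 genes tested, a share under 0.05, and the shares for the other omissions were lower still. Without both libraries numbered 3 it was 531, still with 0 genes called. The excess of higher over lower genes at 2-fold moved as well: 262 higher and 171 lower when replicate 1 at 1% O2 was omitted, 194 and 140 for replicate 3 at 1% O2, and 343 and 14 for replicate 3 at 21% O2. When replicate 2 at 1% O2 was omitted there were 202 higher and 24 lower, and 59 of the 112 genes remained at least 2-fold higher.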

How the data were processed

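The authors deposited, for each library, a table of raw read counts by Ensembl gene ID, per the file headers. Per the submitters' processing notes, fastp 0.23.2, STAR 2.7.10a, HTSeq 0.13.5 and the build EquCab3.0 were used, with no role given. The annotation release and the strand setting were not given in these sources. Overlapping, antisense or near-identical genes may thus share reads. Libraries were sequenced as paired-end reads, per the labels' protocols.

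The 8 libraries were fitted with edgeR 4.0.16 in R 4.3.3 (TMM scaling, filterByExpr, quasi-likelihood test, 1 mean per oxygen group), with Benjamini-Hochberg adjustment over all genes tested and a threshold of 0.05. Standard errors and 95% intervals follow from the test statistic. For log2 CPM the prior count was 2. The fit was checked on simulated data. The simulated counts were drawn independently for each library with no effect shared by replicate number, so the check does not cover that structure. Library measures were compared by exact two-sided permutation tests. The 4 IDs are the 2 smallest unadjusted p in each direction among genes with no overlap and at least 5 CPM in the higher group. Members, lists and rules were chosen with earlier results of these data known, and the description of genes high in 1 library was added after seeing the data. Alternatives were other scalings and filters, robust empirical Bayes, DESeq2 1.42.0, limma-voom (limma 3.58.1), a 1.5-fold test, all 17 libraries in the fit, a replicate block and libraries left out.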

Additional observations from a re-analysis of the deposited data

Results flagged for a closer look

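In the group of 5 libraries at 21% O2, 9 sets of values (5 library measures and the levels of the 4 genes described by ID) were searched for an isolated highest or lowest value, measured by the gap to its neighbour as a share of the whole range. Chance flags about 1 in 20 such sets where the values were not selected, and 1 of the 9 was flagged. The 4 genes were chosen from these same values and the components were built to spread the libraries, so that rate may not hold here. ENSECAG00000052089 had 4.01 CPM in replicate 2 at 21% O2, where the other 4 libraries lay between 3.30 and 3.49 CPM.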

How the results depend on the processing

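The number of genes called was 0 under all 20 alternatives, with a smallest adjusted p of 0.166 (DESeq2), and the number of genes with an interval within 2-fold ran from 8871 to 10970 over 17. Genes with an unadjusted p under 0.05 numbered 597 with no low-count filter, where 23578 genes were tested, 422 with all 17 libraries in the fit, 531 without both libraries numbered 3, and 114 to 795 with 1 library left out. The cause was not tested. Leaving out 1 library also turned the sign of 3 differences between groups that were small against their spread: genes with a count (-228.5 to 52.5), the share of the 100 most abundant genes (-2.08 to 1.55 percentage points) and the first component (-11.4 to 27.0). The sign agreement within numbers was 2836 genes with library size scaling and 2880 with the 1 CPM filter, and has no value with a numbered library left out.

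Libraries with the same number deviated from their group means with r = 0.51, -0.045 and 0.78 across genes for numbers 1, 2 and 3, so the numbers were not taken as pairs. Replicate 2 at 1% O2 correlated best with replicate 4 at 21% O2 (r = 0.40). With the number as a replicate block, 0 genes were called and 168 had an unadjusted p under 0.05, and 167 with the numbered libraries alone. For 2992 genes the interval reached 2-fold, and most genes under 1 CPM were among them. The parts of depth and spread in this were not tested.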
